A study of Mus musculus with 2 samples.

Results

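Mir129-1, Mir129-2, Mir218-1 and Mir218-2 are the paralogous hairpin genes of the microRNA (miRNA) families mir-129 and mir-218. They were chosen by gene name from the GENCODE M21 annotation of the 2202 miRNA genes in the count tables, and all 4 were found. Total RNA of tissue labelled layer of hippocampus had been sequenced as small RNA, with inserts below 30 nucleotides. The tissue came from B6CASTF1/J females (a cross of the strains C57BL/6J and CAST/EiJ) aged 36 days. The series held 2 libraries, biological replicates 1 and 2, which formed 1 group with no treatment, genotype or time contrast. The labels gave both libraries the same donor entry and separate biosample entries, so part of their spread may be technical. Levels are given as sense reads per 1000000 sense reads on miRNA genes (CPM). Detection required 10 reads in both libraries, a minimum that all 4 genes and 376 of the 2202 reached.

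Mature miRNAs are cut from the arms of a hairpin precursor and guide Argonaute proteins to messenger RNAs, chiefly by pairing of the seed, bases 2 to 8 from the 5′ end. Copies of a miRNA gene can give the same mature sequence from different chromosomes. In brain, miR-129-5p is known as a neuronal miRNA that represses potassium channel and other synaptic transcripts, and miR-218 is known from motor neurons and from excitatory neurons of the forebrain. The Mir218 genes lie in introns of Slit2 and Slit3, which encode secreted axon guidance ligands of Robo receptors.

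The mature sequences show what the copies of each family share. All 4 hairpins were found in the RefSeq table (GRCm38.p6) and were identical to the GENCODE transcripts, and 7 mature entries belonged to them. Seeds are in capitals.
miR-129-5p, from both Mir129-1 and Mir129-2: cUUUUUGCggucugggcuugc
miR-129-2-3p, from Mir129-2: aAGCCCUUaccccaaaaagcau
miR-218-5p, from both Mir218-1 and Mir218-2: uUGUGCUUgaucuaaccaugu
miR-218-1-3p, from Mir218-1: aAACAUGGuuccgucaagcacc
miR-218-2-3p, from Mir218-2: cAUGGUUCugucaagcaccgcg
The 5p products were the same in both copies of each family, and their seeds differed between the families. The 3p products of Mir218-1 and Mir218-2 had different seeds. Their annotated starts are at hairpin bases 64 and 67, and no base that differs between the 3p sites lies in either seed. Over the 1679 mature names of the table, no other name had the seed of miR-129-5p, of miR-129-2-3p or of miR-218-2-3p. The table has no 3p entry for Mir129-1, whose hairpin also holds the seed of miR-129-2-3p. The seed of miR-218-5p was shared with 1 other name, miR-7002-3p, and that of miR-218-1-3p with 1, miR-496b. Mir496b had no read in either library, and Mir7002 had 0 reads in replicate 1 and 3 in replicate 2.

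The hairpins are shown because the counts were made per hairpin, from reads with a single place in the genome. Capitals mark stretches of at least 16 bases that also occur in the other copy.
Mir129-1: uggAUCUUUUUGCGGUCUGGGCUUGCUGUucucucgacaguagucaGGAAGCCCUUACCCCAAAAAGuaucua
Mir129-2: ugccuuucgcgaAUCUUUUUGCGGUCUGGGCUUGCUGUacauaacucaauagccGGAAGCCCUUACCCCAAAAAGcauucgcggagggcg
Mir218-1: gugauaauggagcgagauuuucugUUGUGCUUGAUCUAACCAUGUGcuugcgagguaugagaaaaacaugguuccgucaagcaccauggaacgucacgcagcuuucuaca
Mir218-2: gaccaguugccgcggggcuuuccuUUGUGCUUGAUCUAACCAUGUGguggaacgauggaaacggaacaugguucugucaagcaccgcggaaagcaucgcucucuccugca
The Mir129 hairpins share 2 stretches, of 26 bases around miR-129-5p and of 21 bases in the 3p arm. The Mir218 hairpins share 1 stretch, of 22 bases, which holds the whole of miR-218-5p. Aligned end to end, the Mir129 hairpins had 68.1% identical columns and the Mir218 hairpins 70.9%. The site in Mir129-1 that matches miR-129-2-3p, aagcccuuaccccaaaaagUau, carries a single substitution, C20U, with positions counted from 1 at the 5′ end of the mature sequence. In Mir218-2, the site that matches miR-218-1-3p carries A1G and C12U. A read of the complete miR-129-5p or miR-218-5p therefore has a place in both hairpins of its family, whereas 3p reads that cover a differing base do not. Reads with several places were counted apart by the authors' table and made up 38.9% of all reads in replicate 1 and 45.8% in replicate 2. How many of them came from either 5p arm was not analysed here, and the counts do not tell the arms of a hairpin apart. Reads of exactly the complete 5p sequences would be among those counted apart. The levels below therefore need not be levels of miR-129-5p or miR-218-5p.

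Sequence shared with other annotated hairpins was sought on both strands, and the rest of the genome was not searched. No annotated hairpin other than the paralog shared a stretch of at least 16 bases on the same strand with any of the 4. On the opposite strand, Mir129b, a hairpin gene annotated antisense to Mir129-2, shared 65 bases with Mir129-2, its whole length, and 26 with Mir129-1. Of windows of 20 bases, 9 of 54 in Mir129-1, 9 of 71 in Mir129-2 and 3 of 91 in each Mir218 hairpin occurred in another annotated hairpin.

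Mir129-2 and Mir218-2 led their families. The mir-129 family had more assigned reads than the mir-218 family in both libraries, and the second copy of each family held most of them. Mir129-2 had 1789 reads in replicate 1 and 2828 in replicate 2, which are 611 and 776 CPM (693 ± 117, SD, n = 2). Mir129-1, the paralog on chromosome 6, had 202 and 434 reads, or 69.0 and 119 CPM (94.0 ± 35.4). It stood below its paralog in both. Mir218-2, in Slit3, had 429 and 724 reads, or 147 and 199 CPM (173 ± 36.9). Mir218-1, in Slit2, had 51 and 163 reads, or 17.4 and 44.7 CPM (31.1 ± 19.3). The order from high to low was therefore Mir129-2, Mir218-2, Mir129-1 and Mir218-1 in both libraries. Within each library the exact Poisson 95% intervals of these levels did not overlap, and between libraries the ranges of neighbours in this order did not overlap either. Such intervals cover counting error only, since reads are not independent molecules.

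**Figure D1:**
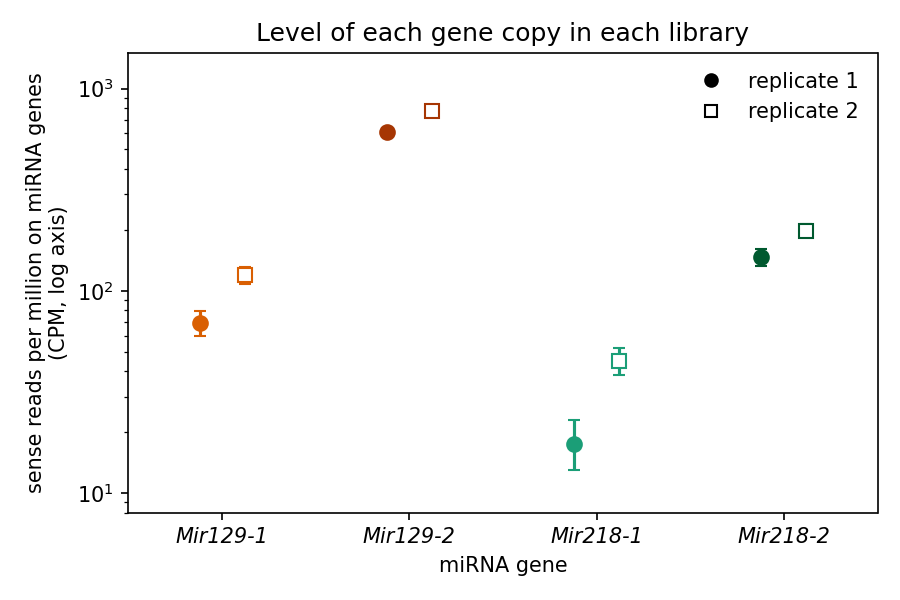
Level of each Mir129 and Mir218 gene in CPM (log axis), with replicate 1 as filled circles and replicate 2 as open squares; bars are exact Poisson 95% intervals. The order of the genes is the same in both libraries, from Mir129-2 at 611 and 776 CPM to Mir218-1 at 17.4 and 44.7 CPM, and replicate 2 lies above replicate 1 for all 4.

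The hairpins differ in annotated length, from 73 bases in Mir129-1 and 90 in Mir129-2 to 110 in both Mir218 genes. Per 100 hairpin bases, Mir129-1 stood at 94.5 and 163 CPM and Mir218-2 at 133 and 181 CPM in replicates 1 and 2. On this scale Mir218-2 was still the higher of the pair in each library, but the ranges over libraries overlapped. Mir129-2 was at 679 and 862 CPM per 100 bases and Mir218-1 at 15.8 and 40.7, so they stayed at the ends of the order on this scale. The lengths are too alike for this scale to have moved them.

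Among all 2202 genes ranked by mean CPM, Mir129-2 was at rank 116, Mir218-2 at 181, Mir129-1 at 203 and Mir218-1 at 257. Neighbours in rank were within the spread of the libraries, as genes next in mean CPM are close by construction. Mir326 (698 ± 226 CPM) stood just above Mir129-2 and Mir1249 (667 ± 135) just below. Around Mir218-2 were Mir331 (175 ± 56.4) and Mir325 (171 ± 33.3 CPM), around Mir129-1 were Mir3072 (100.2 ± 24.8) and Mir491 (90.9 ± 9.24), and around Mir218-1 were Mir592 (33.0 ± 20.1) and Mir3057 (30.7 ± 2.37).

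Both families split unevenly between their copies. Mir129-1 held 10.1% of the reads of its family in replicate 1, with a 95% interval (exact, Clopper-Pearson) from 8.85% to 11.6%. In replicate 2 it held 13.3% (12.2% to 14.5%). Mir129-2 had 8.86 reads for each read of Mir129-1 in replicate 1 and 6.52 in replicate 2. Mir218-1 held 10.6% (8.01% to 13.7%) in replicate 1 and 18.4% (15.9% to 21.1%) in replicate 2. Mir218-2 had 8.41 reads for each read of Mir218-1 in replicate 1 and 4.44 in replicate 2. These shares are of reads with a single place, so they describe the countable part of each hairpin and need not be the shares of the family's mature miRNAs.

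The lesser copy gained share in replicate 2 in both families. The share of Mir129-1 was higher there by 3.16 percentage points and that of Mir218-1 by 7.75. A two-sided Fisher's exact test on the reads, adjusted by Benjamini-Hochberg over every pair of numbered copies with at least 20 reads in each library, gave adjusted p = 0.00209 for the Mir129 pair and 0.000711 for the Mir218 pair. The same test called 9 of 22 pairs (40.9%), so a shift of this kind was common among copies. It sets 1 library against the other with no contrast of conditions, and counting error is the only noise it knows. The absolute shift of the Mir218 pair was exceeded by 5 of the other pairs and that of the Mir129 pair by 11, beside a median of 3.44 points over all 22.

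Against other paralogs, the unevenness of these families was near the middle. The lesser copy held 11.7% ± 2.23 of the reads in mir-129 and 14.5% ± 5.48 in mir-218 (mean of the libraries, SD, n = 2), and the median over the 22 pairs was 12.2%, from 0 to 49.8%. The neuronal mir-128 family had 83.6% and 86.7% of its reads on Mir128-1, whereas mir-138 had 60.1% and 60.4% on Mir138-1. The mir-138 split did not pass the test for a shift (adjusted p = 0.409 by Fisher's exact test), and the mir-128 split did, at 3.15 points and far higher counts.

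**Figure D2:**
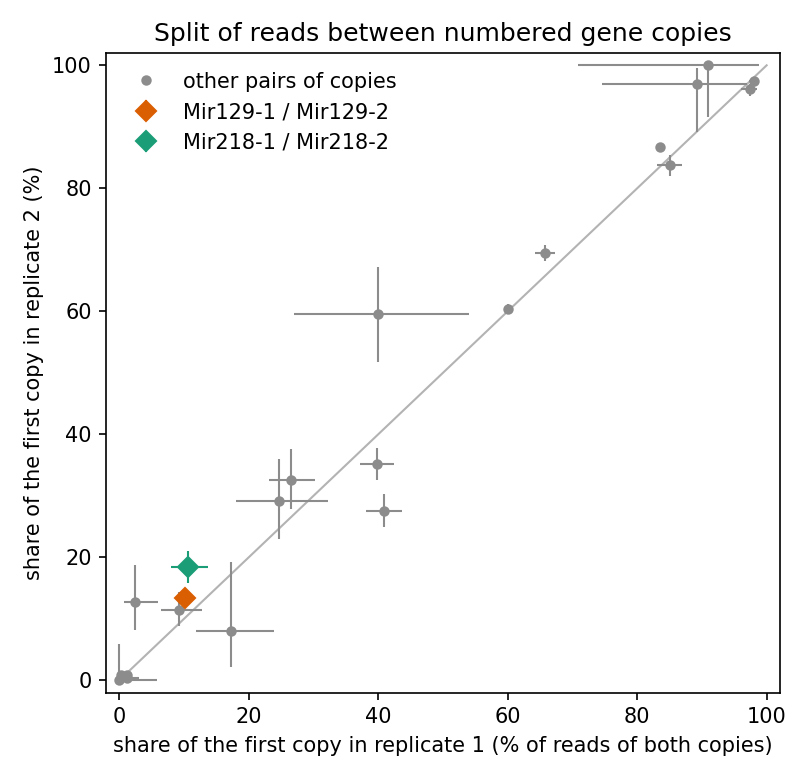
Share of the first numbered copy among the reads of both copies (%), replicate 1 against replicate 2, for 22 pairs; bars are exact 95% intervals and the line marks equal shares. The Mir129 pair (10.1% and 13.3%) and the Mir218 pair (10.6% and 18.4%) are diamonds above the line, among other pairs on both sides of it.

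All 4 genes had a higher CPM in replicate 2. Mir218-1 had the largest ratio of replicate 2 to replicate 1 among them, 2.57-fold (exact 95% interval 1.86 to 3.59), and Mir129-1 followed at 1.73-fold (1.46 to 2.05). The more abundant copies differed less, Mir218-2 by 1.36-fold (1.20 to 1.53) and Mir129-2 by 1.27-fold (1.20 to 1.35). All 4 were called higher in replicate 2 by an exact binomial test (two-sided) of their reads, adjusted over 474 genes, with adjusted p from 6.82e-15 for Mir129-2 to 1.35e-06 for Mir218-2. The test called 58% of genes in either direction. For replicate 2 as the higher library the share was 31.6%, and for replicate 1 it was 26.4%. That balance of 150 against 125 genes hung on the scaling, with 135 against 133 under TMM and 126 against 142 with a total that omits the most abundant gene, while the 4 genes were called higher in replicate 2 under each. The limit given for Fisher's test, of single libraries and counting error alone, holds here too.

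Set against the spread of all genes, the ratios of Mir129-2 and Mir218-2 were near the middle in absolute size and that of Mir218-1 toward the edge. In the 295 genes whose count averaged 50 or more, log2 ratios had a median of 0.03 and an SD of 0.86. The absolute log2 ratio of Mir129-2 (0.35) was larger than that of 50.5% of these genes, that of Mir218-2 (0.44) than 57.6%, that of Mir129-1 (0.79) than 79.7% and that of Mir218-1 (1.36) than 92.5%. With sign, the ratios were higher than those of 71.5% of these genes for Mir129-2 and 75.9% for Mir218-2. They were higher than 87.5% for Mir129-1 and 94.9% for Mir218-1. The median over the 4 genes was 0.61, beside 0.04 over all genes tested. With 2 libraries no exact test over samples can reach 0.05, so none was made.

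**Figure D3:**
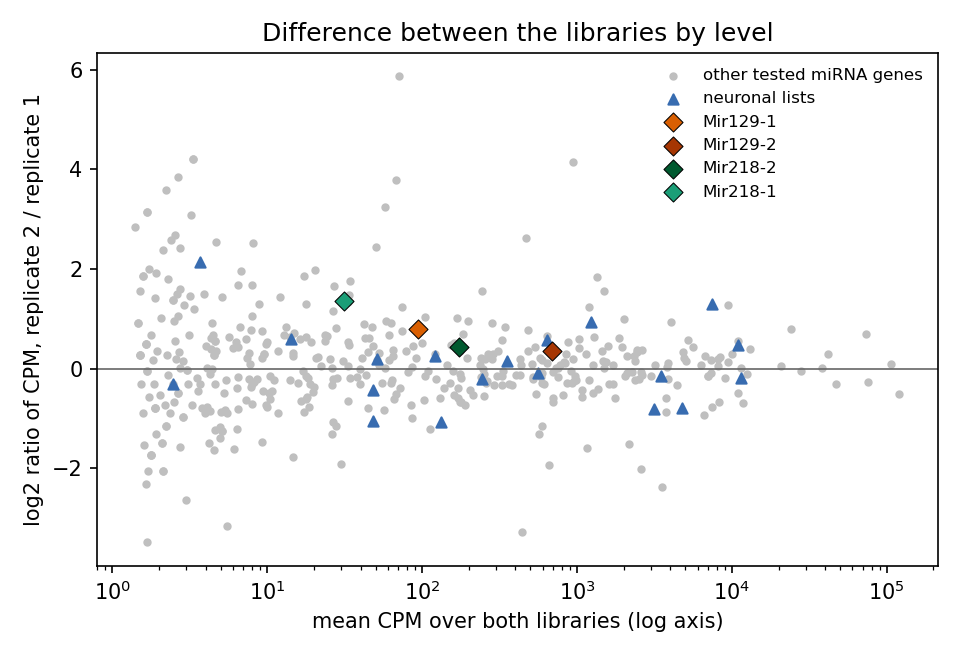
Log2 ratio of CPM, replicate 2 over replicate 1, against mean CPM (log axis) for 474 tested miRNA genes; diamonds are the Mir129 and Mir218 genes and triangles the genes of the neuronal lists. The 4 diamonds lie above 0, from 0.35 for Mir129-2 to 1.36 for Mir218-1, inside the cloud of other genes.

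The other neuronal miRNA genes, from lists written with earlier results of these data known, went in both directions. Of 6 genes with a single copy, all were detected, 3 were called higher in replicate 2 and 1 was called higher in replicate 1. Their median log2 ratio was 0.17. Mir137, in the same direction as the Mir129 and Mir218 genes, was at 9112 and 12631 CPM, and Mir153 at 513 and 761 CPM. Mir132, the highest of the 6 by mean CPM, was called higher in replicate 1 (12153 and 10636 CPM). Mir134 (578 and 542 CPM) and Mir551b (47.5 and 54.6 CPM) were not called. Of 16 genes from families of several copies, 11 were detected and 13 tested. Of these 13, 4 were called higher in replicate 2 and 7 higher in replicate 1, and the median was -0.20. Mir7-1, Mir7-2, Mir7b, Mir135a-2 and Mir135b were called higher in replicate 1, and Mir9-3 and Mir135a-1 in replicate 2. Both Mir128 genes were called higher in replicate 2, with a family sum of 5177 and 12248 CPM, and both Mir138 genes higher in replicate 1, with 10088 and 5793. The mir-129 sum, 680 and 895 CPM, was below both in each library. The mir-218 sum was 164 and 243 CPM, beside 123 and 149 for the 3 Mir9 genes. The 3 Mir124a genes, whose miRNA is known as abundant in neurons, had 16 and 9 reads in all. Reads with several places are in none of these sums, so the sums need not give the order of the mature miRNAs. By reads with a single place, 7 of these 22 neuronal genes had a higher mean CPM than Mir129-2, 11 than Mir218-2, 13 than Mir129-1 and 16 than Mir218-1.

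Marker miRNAs of other cell types also differed between the libraries. Calls of this kind were common, at 58% of the 474 genes tested, so a call alone does not set a list apart. The summed level of 10 astrocyte genes, all detected, went from 19856 to 14452 CPM, and 8 of them were called higher in replicate 1, the other 2 being called in the opposite direction. All 3 erythroid genes were called higher in replicate 1 (1176 and 340 CPM as a sum). In the opposite direction, the sum of 8 epithelial and sensory genes, 4 of them detected, went from 58.7 to 366 CPM. Of 7 tested, 5 were called, all toward replicate 2. Most of the difference was in Mir182 (2.39 and 140 CPM) and Mir183 (9.22 and 127 CPM). Mir182 had 7 reads in replicate 1, below the detection minimum. Mir200c (9.9 and 15.9 CPM) and Mir141 (2.73 and 1.10 CPM) were not called. Of 7 choroid plexus and ciliated cell genes 4 were detected, summed to 1147 and 2661 CPM, with Mir449b at 0 in both libraries. Most of that difference was in Mir204 (592.5 and 2101 CPM), and Mir34b was called in the same direction (8.20 and 32.7 CPM). In contrast, Mir449a was called higher in replicate 1 (124 and 80.4 CPM) and Mir34c was not called (421 and 446). Of 5 listed oligodendrocyte genes 4 were detected (13366 and 10814 CPM as a sum, Mir219b at 0). Mir23a, which held most of that sum (8014 and 8278 CPM), was called higher in replicate 2. Mir219a-2 (3229 and 1127 CPM) and Mir338 (2112 and 1400 CPM) were called higher in replicate 1, and Mir219a-1 was not called. All 3 vascular genes were detected (19436 and 15579 CPM as a sum), with Mir126a called higher in replicate 1, and Mir143 and Mir145a in replicate 2. The Hox cluster list, 6 miRNA genes of hindbrain and spinal cord, where miR-218 is known from motor neurons, had 3 genes detected, summed to 84.4 and 51.3 CPM, with Mir196a-1 at 0. Only 1 of its 4 tested genes was called, Mir10b, higher in replicate 1 (37.6 and 15.1 CPM). The part of any of these cell types in the differences of the Mir129 and Mir218 genes was not tested. In bulk tissue, more cells of a type and more RNA per cell cannot be told apart.

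The host loci differ between the families. Mir218-1 (ENSMUSG00000065603.1) lies at chr5:48223942-48224051 on the plus strand (mm10), in an intron of Slit2, in the same direction as the host. Mir218-2 (ENSMUSG00000065583.1) lies at chr11:35616816-35616925 on the plus strand, in an intron of Slit3, also in the same direction. In transcripts of 36 exons both sit in intron 14, the same place in the host. That intron has 4572 bases in Slit2, with Mir218-1 601 bases before the next exon, and 9571 in Slit3, with Mir218-2 5082 bases before it. The distance from the start of the drawn transcript was 240788 bases for Mir218-1 and 495592 for Mir218-2. An annotated Slit2 transcript of 7 exons starts 471 bases before Mir218-1 and holds it in intron 1, and no such short transcript was annotated around Mir218-2. No other annotated miRNA gene lies within either Slit gene, and the nearest to Mir218-2 is Mir103-1, 165471 bases away, with 29 reads in replicate 1 and 4 in replicate 2. Messenger RNA of Slit2 and Slit3 was not analysed here, so host and miRNA levels were not compared.

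**Figure D4:**
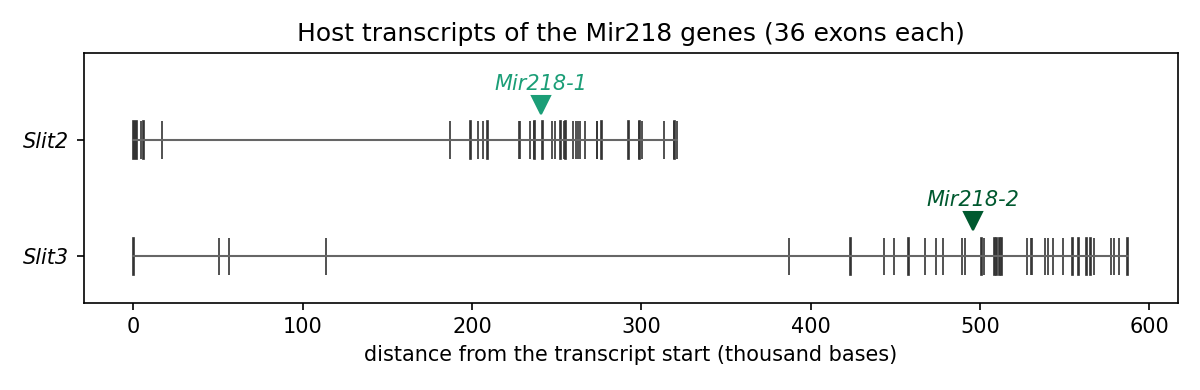
Annotated exons (dark boxes) of a Slit2 and a Slit3 transcript, each with 36 exons, drawn to scale against the distance from the transcript start in kb. Triangles mark Mir218-1 and Mir218-2, both in intron 14; the Slit3 gene is the longer one, and its miRNA had the more reads in both libraries.

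The Mir129 genes lie at noncoding loci. Mir129-1 (ENSMUSG00000065469.1), at chr6:29022619-29022691 on the plus strand, overlaps exon 2 of the lincRNA gene Gm3294 in the same direction, and the nearest protein-coding gene is Lep, 37529 bases away, which encodes the hormone leptin. Mir129-2 (ENSMUSG00000065511.1), at chr2:94241364-94241453 on the minus strand, lies in an intron of Mir670hg, a lincRNA gene in the same direction. Mir670, the other miRNA gene of that locus with reads in the sense direction of the host, had 59 reads in replicate 1 and 47 in replicate 2, or 20.2 and 12.9 CPM, and was named after its values were seen. Its ratio pointed the other way from that of Mir129-2, 1.56-fold higher in replicate 1 (adjusted p = 0.0429 by the exact binomial test), and the difference between the neighbours was not tested.

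Nearly all reads of Mir129-2 were countable only with strand. Mir129b lies inside its interval, at chr2:94241378-94241442 on the plus strand. Of the sense reads of Mir129-2, 1780 of 1789 in replicate 1 and 2817 of 2828 in replicate 2 (99.5% and 99.6%) were placed over Mir129b. In the column without strand these reads were not given to either gene, and Mir129-2 had 9 and 11 reads there. Mir129b itself had 5 sense reads in replicate 1 and 1 in replicate 2. At Mir129-1, Mir218-1 and Mir218-2 no antisense read was counted in either library, which allows up to 3 reads, or 1.02 CPM in replicate 1 and 0.823 in replicate 2, and their counts were the same with and without strand.

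The genes closest to each of the 4 over the 2 libraries were found by the Euclidean distance between pairs of log2(CPM + 1) values. Nearest to Mir129-2 were Mir1249 (distance 0.10), Mir666 (0.23) and the neuronal Mir153 (0.25). Nearest to Mir129-1 were Mir27a (0.24), Mir3059 and Mir3072 (both 0.26). Mir218-1 was closest to Mir592 (0.13), Mir152 (0.14) and Mir214 (0.28), and Mir218-2 to Mir702 (0.07), Mir1224 (0.15) and Mir1306 (0.20). None of the paralogs was among the 3 nearest genes of its partner, which the difference in level between the copies fixed in advance. Over 2 libraries this likeness describes level and ratio only.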

How the data were processed

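Per the values and the notes beside them, the authors deposited raw read counts per miRNA gene, in 3 unnamed columns per library that were read from their totals as without strand, sense and antisense. Those notes name the assembly mm10 and the annotation GENCODE M21. Which aligner was used is not given in the sources used here. Another 4 rows name no gene, held 69.5% and 65.3% of reads, and were left out. Sense totals were 2928141 in replicate 1 and 3644157 in replicate 2, where 10 reads are 3.42 and 2.74 CPM.

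The members and lists were chosen with earlier results of these data known. Gene symbols, positions and hosts came from GENCODE M21, sequences from RefSeq (GRCm38.p6). Genes with a summed count of at least 10 entered the exact binomial test between libraries, adjusted by Benjamini-Hochberg (threshold 0.05), and pairs of numbered copies with at least 20 reads in each library entered Fisher's exact test. A gene with 0 reads in a library was put at a floor of 3 counts in ratios. The text names the 4 genes, their rank neighbours, the 3 nearest genes of each by distance, list genes, pairs of copies and genes that share at least 16 bases.

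A chi-square over genes was 390 times its degrees of freedom, so the libraries are not a duplicate deposit. The edgeR (4.0.16) biological coefficient of variation was 0.382 over 399 genes (intercept only; mean count of at least 10). The tests were tried on simulated counts. Other settings tried were unstranded counts, scaling by TMM or by DESeq2 (1.42.0), other totals, other filters and leaving out either replicate. The software was R 4.3.3 and Python 3.11.15, with numpy 2.4.6, scipy 1.17.1 and matplotlib 3.10.9.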

Additional observations from a re-analysis of the deposited data

Results flagged for a closer look

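Reads antisense to Mir129-2, which are the sense reads of Mir129b, numbered 5 in replicate 1, above the 3 counts that a count of 0 allows, and 1 in replicate 2, below it. They were 0.279% of the stranded reads at that locus in replicate 1 and 0.0354% in replicate 2.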

How the results depend on the processing

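Mir129-2 depended on the strand. Without strand its mean level was 3.29 CPM, its log2 ratio was -0.035 (reversed, adjusted p = 1 by the exact binomial test), Mir129-1 held 96.6% of mir-129 reads, and the shift in that share was 1.79 points (adjusted p = 0.319 by Fisher's exact test), because reads over Mir129b were left out of that column. With reads of several places added to the total, mean levels were 40.8 CPM for Mir129-1, 302 for Mir129-2, 13.5 for Mir218-1 and 75.0 for Mir218-2, since the total is larger. Under TMM, DESeq2 size factors, a total without the most abundant gene and both other filters, the 4 log2 ratios kept their sign and their adjusted p stayed under 0.05, as it did in both share tests under other filters on pairs. Leaving out either replicate gave shares of 10.1% to 13.3% for Mir129-1 and 10.6% to 18.4% for Mir218-1, and left no ratio between libraries. Counts of called genes ranged from 232 of 295 tested, at a summed count of at least 100, to 275 of 474. With no filter on low counts, 263 of 723 were called, so the share called hung on the filter. No paired analysis was possible because there is 1 group. Mir218-1, with 51 reads in replicate 1, is the least precisely counted of the 4.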
